A study of Mus musculus with 12 samples.

Results

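Extraembryonic endoderm regulators are described here as a set of 10 genes, Gata4, Gata6, Sox17, Sox7, Foxa2, Hnf4a, Dab2, Cited1, Pdgfra and Afp, taken by symbol from a table of 54555 genes. All 10 symbols were found, each with 1 row. They were followed in R1 mouse embryonic stem cells (mESCs), an established line grown on gelatin, in 4 groups of 3 RNA-seq libraries. The mESC_control cells were labelled normal and kept with leukemia inhibitory factor, and whether they received solvent is not stated. The mESC_OGTi cells received 25 µM Ac45SGlcNAc, an inhibitor of the O-GlcNAc transferase OGT, for 48 h. The RA_control cells were pre-treated with the solvent DMSO and then held for 48 h with 1 µM retinoic acid (RA) in medium lacking the factor. The RA_OGTi cells were pre-treated with the inhibitor before the same RA step, and whether it stayed on during RA is not stated. RA and the loss of the factor came together and cannot be told apart, so "RA" below stands for both. The pre-treatment that preceded the RA step, with DMSO in RA_control, cannot be told apart from them either. All groups derive from 1 line, and no label says whether replicates were separate cultures. The p-values therefore reflect how far these libraries scatter, and that scatter may be technical.

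Extraembryonic endoderm arises in the blastocyst as primitive endoderm, which forms under FGF signalling as GATA6 rises and NANOG is lost, and it later gives parietal endoderm, which lays down a thick basement membrane, and visceral endoderm, which takes up and secretes nutrients around the embryo. GATA6 and GATA4 are zinc-finger transcription factors of this lineage, SOX17 and SOX7 are HMG-box factors that act beside them, and PDGFRA is a receptor that marks the lineage early. DAB2 is an endocytic adaptor of endoderm, CITED1 a transcriptional co-activator that binds CBP and p300, FOXA2 and HNF4A are factors of visceral endoderm, and AFP is a serum protein that visceral endoderm secretes. RA has long been used to turn pluripotent cells of several lines towards endoderm. Several of these genes also serve other tissues, such as heart mesoderm for Gata4 and fibroblasts for Pdgfra.

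Promoter sequences are shown for the members whose levels changed with RA and that have an entry in RefSeq's promoter table, on GRCm38.p6, so that the changes can be read beside the sequence just upstream of each gene. Of the 10 members, 6 had an entry. Each run is on the gene's own strand, 5′ to 3′, covers up to 250 bases before a RefSeq start site at most 49 bases from the deposited 5′ end, and stops before the deposited gene begins. Capitals mark matches on either strand to GATA motifs (AGATAA or AGATAG, and TGATAA or TGATAG), SOX motifs (ACAATG or ACAAAG), FOXA motifs (TGTTTAC or TGTTTGC) or the nuclear receptor half-site AGGTCA. Foxa2 and Cited1 lie on the minus strand and the others on the plus strand. The first 4 belong to genes that rose with RA and the last to the gene that fell.
Dab2, chr15:6299539-6299787: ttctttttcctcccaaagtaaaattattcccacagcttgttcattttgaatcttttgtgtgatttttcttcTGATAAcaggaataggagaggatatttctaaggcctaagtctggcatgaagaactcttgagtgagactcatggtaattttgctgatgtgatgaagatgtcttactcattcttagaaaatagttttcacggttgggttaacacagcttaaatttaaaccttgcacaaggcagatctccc
Cited1, chrX:102252182-102252431: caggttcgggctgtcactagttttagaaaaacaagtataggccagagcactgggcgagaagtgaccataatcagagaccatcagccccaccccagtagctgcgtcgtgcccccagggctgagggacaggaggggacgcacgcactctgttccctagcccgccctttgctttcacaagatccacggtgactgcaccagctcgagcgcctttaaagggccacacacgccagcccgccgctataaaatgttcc
Pdgfra, chr5:75152001-75152250: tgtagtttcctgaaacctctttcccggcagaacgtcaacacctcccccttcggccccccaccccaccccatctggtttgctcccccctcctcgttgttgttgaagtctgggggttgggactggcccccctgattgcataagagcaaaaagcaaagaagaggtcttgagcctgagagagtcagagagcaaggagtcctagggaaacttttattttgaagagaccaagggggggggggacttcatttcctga
Foxa2, chr2:148046970-148047219: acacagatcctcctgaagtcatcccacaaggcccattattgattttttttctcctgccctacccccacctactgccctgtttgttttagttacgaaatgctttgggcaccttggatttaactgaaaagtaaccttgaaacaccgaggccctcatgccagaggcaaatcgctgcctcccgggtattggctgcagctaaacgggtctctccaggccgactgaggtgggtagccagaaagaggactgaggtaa
Hnf4a, chr2:163506607-163506807: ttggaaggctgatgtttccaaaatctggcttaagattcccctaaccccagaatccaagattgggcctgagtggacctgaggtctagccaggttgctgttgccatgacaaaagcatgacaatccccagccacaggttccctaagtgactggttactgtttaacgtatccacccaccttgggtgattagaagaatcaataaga
The Dab2 window held 1 GATA match, and the other windows shown held no match to any of these letters. Over 32851 promoter windows of 250 bases, 26.5% held a GATA match, 25.2% a SOX match, 7.29% a FOXA match and 14.0% the half-site. The 1 GATA match among these windows is therefore a description only.

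The libraries held 15553627 to 17833464 fragments assigned to genes, and 12931 to 13993 genes reached 1 FPKM. FPKM is fragments scaled to gene length and to a library total, which here was not the total of fragments counted. Tests used limma on log2(FPKM + 1) over all 12 libraries and 14866 genes with at least 1 FPKM in 3 or more libraries, and a gene was called at a Benjamini-Hochberg adjusted p under 0.05. Nanog, a pluripotency factor, stood at 289 ± 15.8 FPKM (SD, n = 3) in mESC_control and 37.1 ± 2.27 FPKM in RA_control. With RA without inhibitor 10 of 10 genes in the pluripotency list fell, beside 37.2% of all tested genes called lower. Of the regulators, 9 entered the tests and Afp did not. Sox7, Foxa2 and Pdgfra reached 1 FPKM in RA libraries only, and Sox17 in 6 RA libraries and 1 mESC library. Hnf4a reached it in mESC libraries only. For these 5 genes a difference between mESCs and RA-treated cells was built into the filter.

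All 10 regulators were at low levels in undifferentiated cells. In mESC_control the means ran from 0.0631 FPKM for Afp to 2.18 FPKM for Gata4, in cells with 289 FPKM of Nanog. The order in mESC_control was Gata4, Cited1, Hnf4a, Gata6, Dab2, Sox7, Sox17, Pdgfra, Foxa2 and Afp. Neighbours in this order had separate ranges in 4 places, between Cited1 and Hnf4a, Dab2 and Sox7, Pdgfra and Foxa2, and Foxa2 and Afp. In RA_control the order was Gata4, Cited1, Gata6, Dab2, Pdgfra, Sox7, Sox17, Foxa2, Hnf4a and Afp, so Hnf4a had moved from the third place to the ninth. The ranges of Gata4 and Cited1 overlapped there, as did those of Gata6 and Dab2, and of Pdgfra, Sox7 and Sox17. In bulk RNA, a few cells with much of a transcript and many cells with little of it cannot be told apart.

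**Figure D1:**
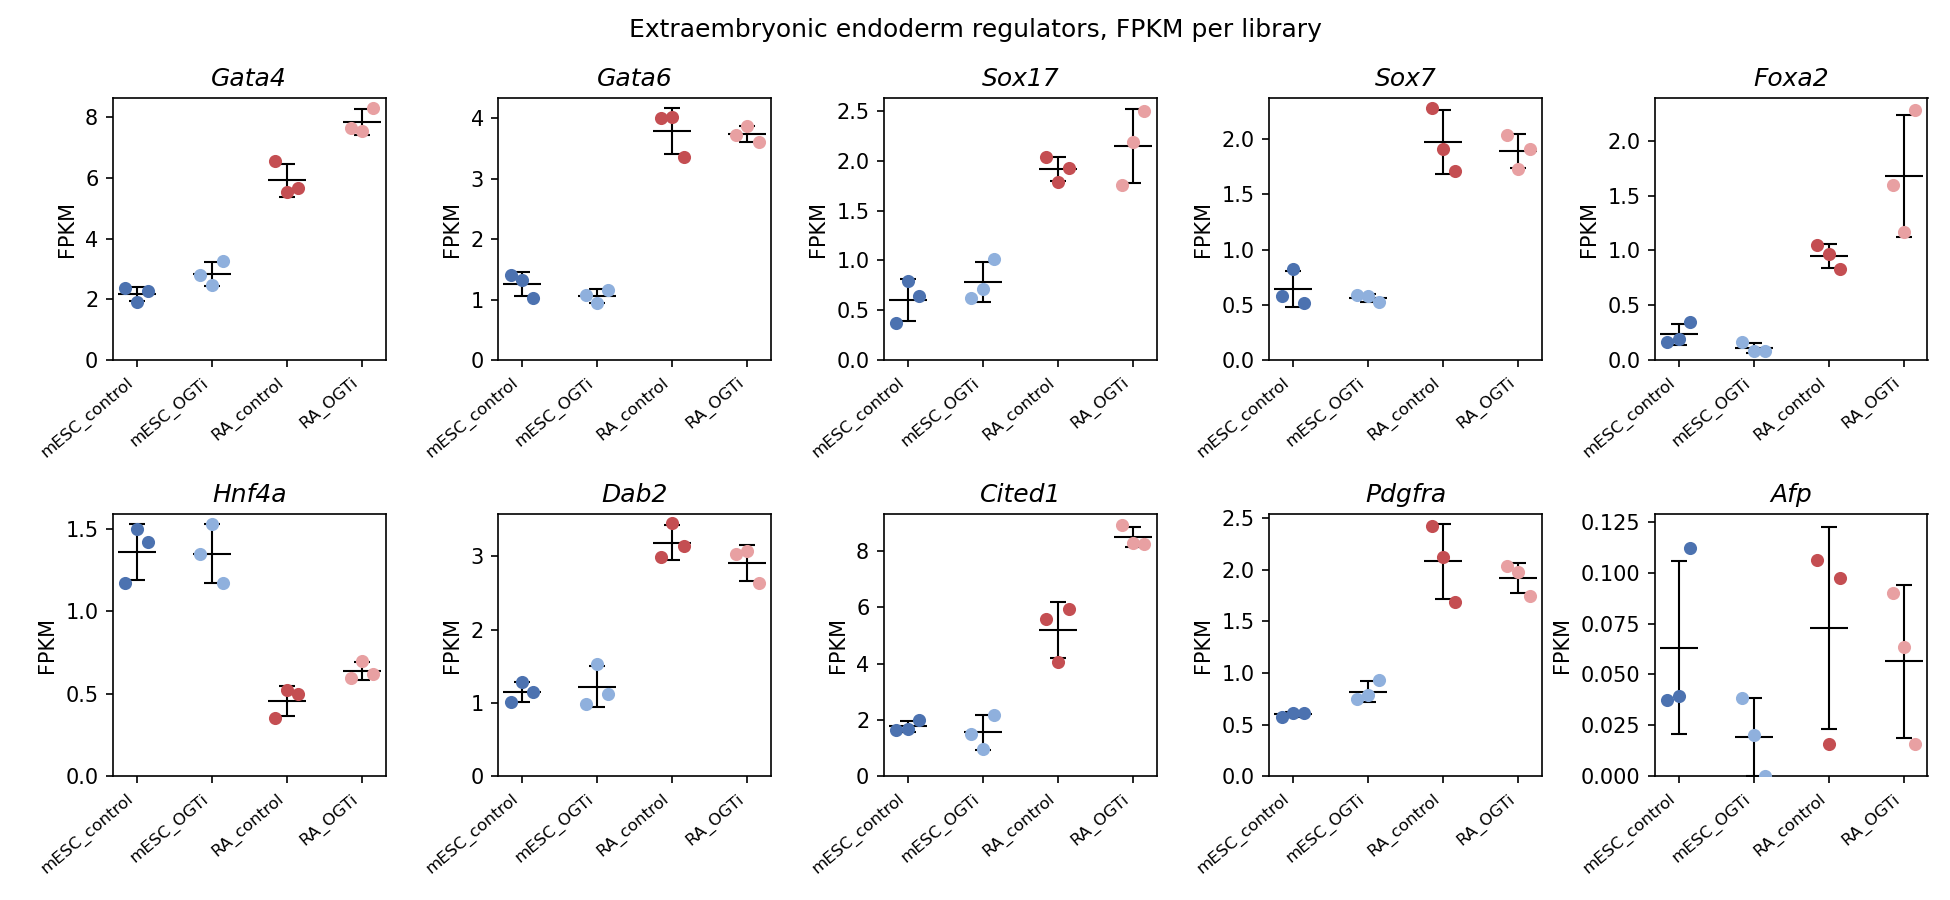
Expression of the 10 regulators in each library, with 1 panel a gene and FPKM on a linear axis from 0. Points are libraries, horizontal bars are group means and error bars are SDs over 3 libraries. Gata4 and Cited1 are highest in RA_OGTi, Hnf4a is highest in the mESC groups, and Afp stays at or below 0.112 FPKM.

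RA without inhibitor raised 8 of the 10 regulators and lowered 1. Over all tested genes, 70.9% were called in this comparison, 33.7% higher and 37.2% lower. The groups did not overlap for any of the 9, 8 higher and 1 lower, as for 73.2% of all tested genes (34.8% higher and 38.5% lower). With so many genes called, and 5 of the 9 tested through the state where they were higher, these counts describe the set and set it apart from nothing. The 8 that rose did so by a similar factor, with RA_control means 2.72 to 4.06 times those of mESC_control. Among the 4 regulators that passed the filter through libraries of both states, Gata4, Gata6, Dab2 and Cited1, the factor ran from 2.72 to 3.02.

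The GATA factors rose to a few FPKM. Gata4 (ENSMUSG00000021944, chromosome 14, 63198922 to 63271692, minus strand, GRCm38) read 2.36, 1.91 and 2.27 FPKM in the mESC_control libraries and 6.54, 5.55 and 5.68 FPKM in RA_control. The lowest RA_control library stood well above the highest mESC_control library. The difference in log2(FPKM + 1) was 1.12 (SE 0.089, limma adjusted p = 4.16e-07), on 398 fragments in mESC_control and 1242 in RA_control over the 3 libraries. Gata6 (ENSMUSG00000005836, chromosome 18, 11052510 to 11085635, plus strand) read 1.41, 1.33 and 1.02 FPKM in mESC_control and 4.01, 4.02 and 3.35 FPKM in RA_control, again without overlap. Its difference was 1.09 (SE 0.087, limma adjusted p = 4.37e-07), 3.02-fold by group means.

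The HMG-box pair moved in parallel from below 1 FPKM. Sox17 (ENSMUSG00000025902, chromosome 1, 4490931 to 4497354, minus strand) read 0.373, 0.794 and 0.646 FPKM in mESC_control and 2.04, 1.79 and 1.93 FPKM in RA_control (difference in log2(FPKM + 1) 0.87, SE 0.13, limma adjusted p = 6.14e-05). Sox7 (ENSMUSG00000063060, chromosome 14, 63943673 to 63950732, plus strand) read 0.578, 0.826 and 0.515 FPKM in mESC_control and 2.28, 1.91 and 1.71 FPKM in RA_control (difference 0.86, SE 0.10, limma adjusted p = 1.04e-05). By group means Sox17 was 3.18-fold and Sox7 3.07-fold higher. Neither pair of groups overlapped.

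The receptor, the adaptor and the co-activator also rose. Pdgfra (ENSMUSG00000029231, chromosome 5, 75152292 to 75198215, plus strand) went from 0.601 ± 0.0261 to 2.08 ± 0.363 FPKM (SD, n = 3, 3.46-fold, limma adjusted p = 3.44e-06). Dab2 (ENSMUSG00000022150, chromosome 15, 6299788 to 6440712, plus strand) went from 1.15 ± 0.136 to 3.19 ± 0.235 FPKM (2.76-fold, limma adjusted p = 3.40e-06). Cited1 (ENSMUSG00000051159, chromosome X, 102247381 to 102252181, minus strand) read 1.63, 1.67 and 2.01 FPKM in mESC_control and 5.57, 4.06 and 5.95 FPKM in RA_control (difference 1.15, SE 0.16, limma adjusted p = 4.45e-05). RA_control replicate 2 was the lowest of its group for Cited1 and still stood above every mESC_control library.

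The visceral endoderm factors went separate ways. Foxa2 (ENSMUSG00000037025, chromosome 2, 148042877 to 148046969, minus strand) read 0.161, 0.196 and 0.345 FPKM in mESC_control, which is 6, 7 and 13 fragments, and 1.05, 0.971 and 0.83 FPKM in RA_control, which is 42, 43 and 36 fragments. Its difference was 0.66 (SE 0.14, limma adjusted p = 0.00113). Hnf4a (ENSMUSG00000017950, chromosome 2, 163506808 to 163572910, plus strand) fell: it read 1.17, 1.5 and 1.42 FPKM in mESC_control and 0.356, 0.521 and 0.498 FPKM in RA_control, 2.98-fold lower by group means (difference -0.70, SE 0.095, limma adjusted p = 4.04e-05). It was the one tested regulator that was lower in every RA library than in every mESC library. Afp (ENSMUSG00000054932, chromosome 5, 90490737 to 90508907, plus strand) had 0 to 6 fragments a library in every group, too few to show a difference at this depth.

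The 9 calls for RA without inhibitor held in every alternative that tested the gene, including each fit without 1 library and limma-voom on recovered fragments. Scaling to TPM moved the median difference of all tested genes from -0.035 to 0.16, and 8 regulators remained higher and Hnf4a lower (differences from -0.59 to 1.32). Because 1 is added before the log, these differences understate the change of genes near or under 1 FPKM. On recovered fragments the log2 fold changes were larger, at 1.43 for Gata4, 1.60 for Gata6, 1.73 for Sox17 and -1.56 for Hnf4a.

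RA in inhibitor-treated cells changed all 9 tested regulators by limma, 8 higher and 1 lower, with 68.7% of all tested genes called, 32.0% higher and 36.7% lower. The groups did not overlap for any of the 9, as for 71.9% of all tested genes (33.7% higher and 38.2% lower). Here too, a difference between the states was built into the filter for Sox17, Sox7, Foxa2, Pdgfra and Hnf4a. The group means compared here use no library of the comparison without inhibitor. The filter and the estimate of the spread come from all 12 libraries and are shared by both comparisons. Cited1 read 1.51, 0.972 and 2.19 FPKM in mESC_OGTi and 8.90, 8.29 and 8.26 FPKM in RA_OGTi, a difference of 1.92 (SE 0.16, limma adjusted p = 6.11e-07). Gata4 rose from 2.84 ± 0.395 to 7.83 ± 0.422 FPKM (SD, n = 3, difference 1.21, SE 0.089, limma adjusted p = 2.40e-07), and Gata6 from 1.06 ± 0.113 to 3.74 ± 0.126 FPKM (difference 1.20, SE 0.087, limma adjusted p = 1.95e-07). Foxa2 rose from 6, 3 and 3 fragments to 75, 52 and 101 fragments (difference 1.25, SE 0.14, limma adjusted p = 7.35e-06). No fold is given for Foxa2 here, since 2 mESC_OGTi libraries stood at 3 fragments. Dab2, Sox17, Sox7 and Pdgfra rose by 0.82, 0.82, 0.89 and 0.68. Hnf4a fell by 0.52 (SE 0.095, limma adjusted p = 0.000433), from 1.35 ± 0.179 to 0.638 ± 0.053 FPKM.

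**Figure D2:**
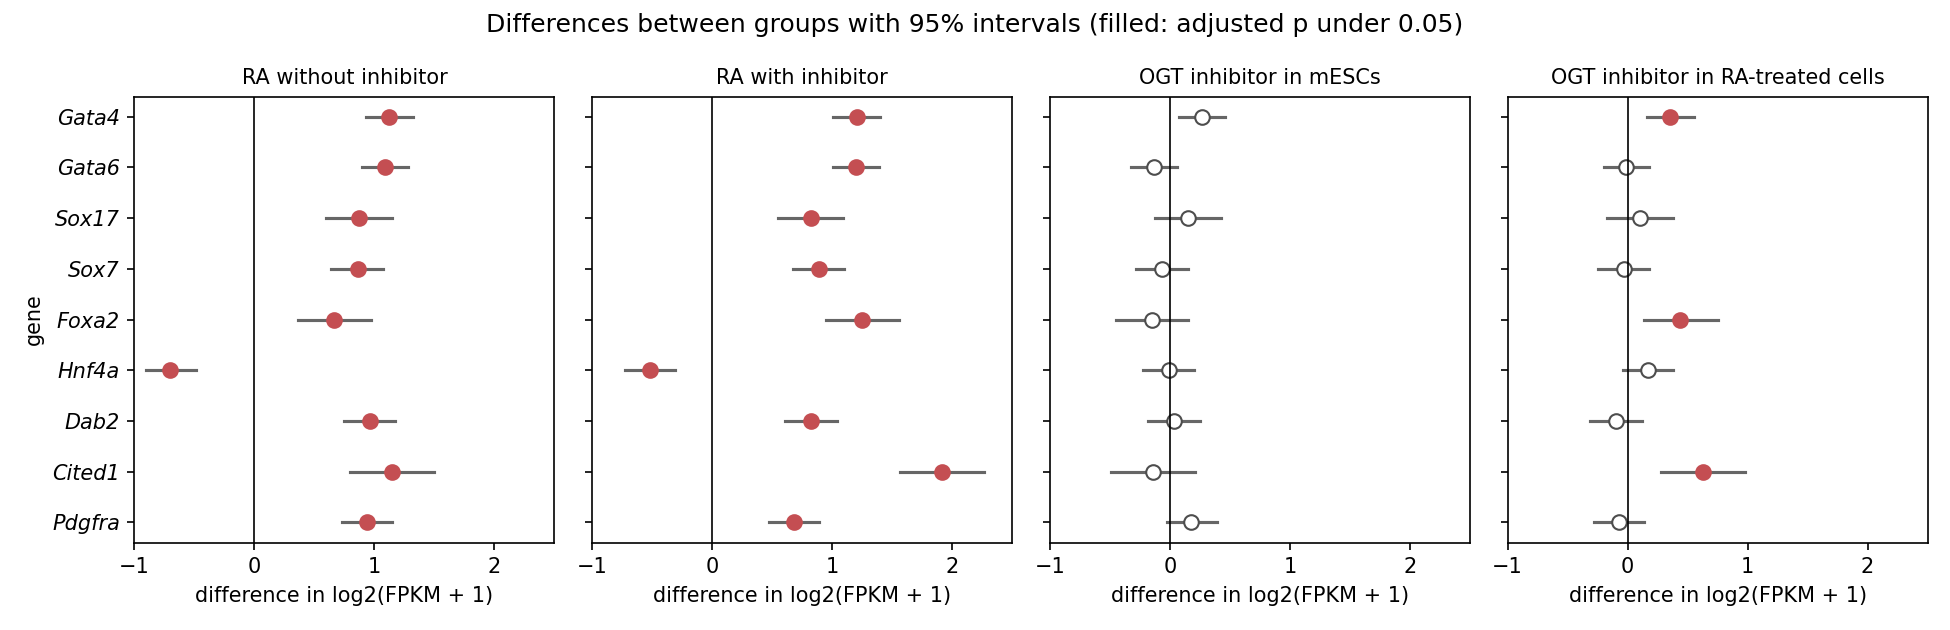
Differences in log2(FPKM + 1) for the 9 tested regulators in 4 comparisons, with 95% intervals from limma. Filled points passed an adjusted p of 0.05. With RA, 8 genes lie right of 0 and Hnf4a left of it. With the inhibitor in mESCs all 9 points are open, and in RA-treated cells Gata4, Foxa2 and Cited1 are filled.

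The inhibitor in undifferentiated mESCs changed none of the 9 tested regulators by limma at an adjusted p under 0.05, where 7.78% of all tested genes were called, 4.60% higher and 3.18% lower. At an unadjusted p under 0.05 there was 1, Gata4, against 23.3% of all tested genes. Limma-voom on recovered fragments also called 0 after adjustment (2 unadjusted), against 9.16% of all tested genes called. Gata4 read 2.80, 2.46 and 3.25 FPKM in mESC_OGTi against 2.36, 1.91 and 2.27 FPKM in mESC_control, so every treated library was above every control library. Its difference was 0.27 (95% interval 0.073 to 0.46, limma adjusted p = 0.0894). Pdgfra was the other gene whose groups did not overlap, at 0.747, 0.783 and 0.934 FPKM with and 0.571, 0.617 and 0.615 FPKM without inhibitor (difference 0.18, 95% interval -0.024 to 0.39, limma adjusted p = 0.276). These 2 genes of 9 stand beside 29.8% of all tested genes without overlap, 16.4% higher and 13.3% lower. Gata6 averaged 1.26 ± 0.205 FPKM in mESC_control and 1.06 ± 0.113 FPKM in mESC_OGTi (SD, n = 3, difference -0.13, 95% interval -0.32 to 0.061, limma adjusted p = 0.413). The other 6 differences lay between -0.15 and 0.15, and that of Foxa2 rested on 26 and 12 fragments over 3 libraries.

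In RA-treated cells the inhibitor raised 3 of the 10 regulators, Gata4, Cited1 and Foxa2, and lowered none by limma. Of all tested genes 31.9% were called, 17.6% higher and 14.3% lower, so 3 of 9 is near the background and says nothing particular about the set. Gata4 read 7.64, 7.53 and 8.31 FPKM in RA_OGTi against 6.54, 5.55 and 5.68 FPKM in RA_control, 1.32-fold by group means (difference 0.35, SE 0.089, limma adjusted p = 0.0112). Cited1 read 8.90, 8.29 and 8.26 FPKM against 5.57, 4.06 and 5.95 FPKM, 1.63-fold (difference 0.63, SE 0.16, limma adjusted p = 0.0111). For both genes every RA_OGTi library lay above every RA_control library, and the call held in each of 20 alternatives, with adjusted p from 0.00138 to 0.0459 for Gata4 and from 0.000449 to 0.0436 for Cited1.

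Foxa2 rose as well, and this call was less stable. It read 1.60, 1.17 and 2.28 FPKM in RA_OGTi against 1.05, 0.971 and 0.83 FPKM in RA_control (1.77-fold, difference 0.44, SE 0.14, limma adjusted p = 0.0311). The groups did not overlap, and RA_OGTi replicate 3 was the highest library. Foxa2 reached 1 FPKM in 4 libraries, the 3 of RA_OGTi among them, so the filter let it in through the group where it was high. The call was lost without RA_OGTi replicate 3 (difference 0.29, adjusted p = 0.114) or replicate 1 (0.0681), and without RA_control replicates 1, 2 or 3 (adjusted p = 0.0506, 0.0633 and 0.0886). It was also lost when 0.1 replaced 1 as the pseudocount (adjusted p = 0.118), when all genes were kept (adjusted p = 0.0548) and when just the RA libraries were fitted (adjusted p = 0.0733). On recovered fragments it passed (log2 fold change 0.77, adjusted p = 0.0213). Among its alternatives the adjusted p spanned 0.00759 to 0.118.

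The remaining regulators did not pass with the inhibitor in RA-treated cells. Gata6, which shares the lineage role of Gata4, averaged 3.79 ± 0.382 FPKM in RA_control and 3.74 ± 0.126 FPKM in RA_OGTi (SD, n = 3, difference -0.014, 95% interval -0.20 to 0.18, limma adjusted p = 0.922). The intervals of Sox7, Dab2 and Pdgfra ran from -0.25 to 0.18, from -0.31 to 0.12 and from -0.28 to 0.14, and that of Sox17 from -0.17 to 0.38. Hnf4a read 0.596, 0.698 and 0.62 FPKM with inhibitor and 0.356, 0.521 and 0.498 FPKM without, with no overlap (difference 0.17, 95% interval -0.039 to 0.38, limma adjusted p = 0.202). Groups without overlap and higher with inhibitor were thus found for 4 of 9 regulators, and lower for none, against 44.1% of all tested genes (23.7% higher and 20.5% lower).

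The inhibitor effects in the 2 states were compared directly as a difference of effects. The 2 arms also differed in their controls, with DMSO for RA_control and solvent not stated for mESC_control. In the RA arm the inhibitor was given before a further 48 h step. These differences between the arms cannot be told apart from that of state. By limma 0 of 9 regulators passed, with 7.69% of all tested genes called, 3.90% in the positive and 3.79% in the negative direction. At an unadjusted p under 0.05 there were 2, Cited1 and Foxa2, against 24.0% of all tested genes. Limma-voom called 0 after adjustment (3 unadjusted), against 8.2% of all tested genes called. For Cited1 the inhibitor effect was -0.14 in mESCs and 0.63 in RA-treated cells, a difference of 0.77 (SE 0.22, 95% interval 0.27 to 1.26, limma adjusted p = 0.0605). Scaling to TPM brought Cited1 past the threshold (adjusted p = 0.031), as did testing just genes with a mean of at least 5 FPKM in a group (0.0448), the replicate number as a block (0.029) and leaving out mESC_OGTi replicate 3 (0.0212). Its alternatives spanned 0.0212 to 0.136. For Foxa2 the effects were -0.15 and 0.44, a difference of 0.59 (SE 0.20, 95% interval 0.16 to 1.02, limma adjusted p = 0.0912), which passed without RA_OGTi replicate 2 (adjusted p = 0.0338). For Gata4 the effects were 0.27 and 0.35 (difference 0.083, 95% interval -0.19 to 0.36, limma adjusted p = 0.742). The call for Gata4 in RA-treated cells and its absence in mESCs therefore do not show that the effects differ.

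Downstream genes of the lineage were read from lists of parietal and visceral endoderm genes. With RA without inhibitor 33.7% of all tested genes were called higher and 37.2% lower. With the inhibitor in RA-treated cells the shares were 17.6% and 14.3%. In the parietal endoderm and basement membrane list, 10 of 14 tested genes rose with RA without inhibitor and 2 fell (median difference 0.64, against -0.035 for all tested genes). Plat, which encodes tissue plasminogen activator, rose from 0.634 ± 0.052 to 6.57 ± 0.388 FPKM (SD, n = 3, difference 2.21, limma adjusted p = 2.68e-10). Plat reached 1 FPKM in RA libraries only, so for it a difference between the states was built into the filter. Krt18 and Krt8, keratins of simple epithelia, rose by 2.40 and 1.85, and Serpinh1, a collagen chaperone, by 1.73. The 2 that fell were the basement membrane genes Lama1 and Nid1, by 0.57 and 0.51 (limma adjusted p = 1.86e-05 and 4.98e-06). Lamc1 and Sparc of the same list were not called (differences 0.043 and 0.068). Keratins are not particular to parietal endoderm. With the inhibitor in RA-treated cells 7 of the 14 rose and 4 fell (median 0.14, against 0.0023 for all). Krt8, Krt19 and Krt18 fell by 1.47, 1.17 and 1.01, while the basement membrane gene Col4a2 rose by 0.53 (limma adjusted p = 0.000271). In mESCs the inhibitor raised 6 of the 14 and lowered 1, beside 4.60% of all tested genes called higher and 3.18% lower. Lama1, a laminin chain of the same membrane, rose by 0.53 (limma adjusted p = 0.00302), and Krt19 fell by 0.46 (limma adjusted p = 0.0149). The call of Krt19 was lost without mESC_control replicate 1 or mESC_OGTi replicate 2 (adjusted p up to 0.0611). The difference of effects passed for 5 of the 14, all negative, beside 3.79% of all tested genes in that direction. The 4 largest were Krt8, Krt18, Krt19 and Lama1 (-1.41, -1.07, -0.71 and -0.46), and that of Lama1 was lost without mESC_OGTi replicate 2 or RA_OGTi replicate 1 (adjusted p up to 0.0553).

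In the visceral endoderm list, 9 of 12 tested genes rose with RA without inhibitor and 1 fell (median 0.65). Of all tested genes 33.7% were called higher and 37.2% lower. A further 6 of the 18 listed genes were too low to test. Ctsh, a lysosomal protease, Lrp2, the endocytic receptor megalin, Rbp4, which carries retinol, and Foxa1, a forkhead factor related to Foxa2, rose by 1.63, 1.07, 1.04 and 1.00. Cubn, which encodes cubilin, a partner of megalin, went from 0.47 ± 0.0676 to 1.36 ± 0.137 FPKM (SD, n = 3, difference 0.68, limma adjusted p = 2.31e-05). Foxa1 reached 1 FPKM in RA libraries only, and Cubn in RA_control only. For both a rise with RA was thus built into the filter, and for Cubn also a lower level in RA_OGTi. The counts and median of this list lean towards a rise for that reason. Secreted products of the list differed in level. Rbp4 went from 3.82 ± 0.386 to 8.93 ± 0.94 FPKM and Apoe from 350.0 ± 26.7 to 492 ± 14.3 FPKM with RA (SD, n = 3, limma adjusted p = 6.79e-07 and 0.000139), while others stayed near 0: Ttr was at 0 in all mESC libraries and reached at most 0.175 FPKM in RA libraries, and Apob and Trf had means of 0.0533 and 0.123 FPKM in RA_control. With the inhibitor in RA-treated cells 3 of 12 rose and 2 fell (median 0.13), beside 17.6% of all tested genes called higher and 14.3% lower. Foxa1 rose from 1.76 ± 0.415 to 3.02 ± 0.433 FPKM (SD, n = 3, difference 0.55, SE 0.13, limma adjusted p = 0.00766). Apoe, a lipid carrier, fell from 492 ± 14.3 to 229 ± 16.5 FPKM, and Cubn from 1.36 ± 0.137 to 0.564 ± 0.00558 FPKM (differences -1.10 and -0.59, limma adjusted p = 5.96e-06 and 0.000517). Foxa1 thus rose with the inhibitor beside Foxa2, and Cubn fell while Dab2, its adaptor, did not pass. The difference of effects passed for 3 of 12, beside 7.69% of all tested genes: Apoe and Cubn in the negative direction (-1.20 and -0.73, limma adjusted p = 0.000286 and 0.00634) and Dpp4, a peptidase, in the positive one (0.62, limma adjusted p = 0.0261). Dpp4 kept its call in 9 of 18 alternatives and lost it in the others, with adjusted p up to 0.0602: with no filter, and without mESC_control replicate 1 or 2, mESC_OGTi replicate 1 or 2, RA_control replicate 1 or 3, or RA_OGTi replicate 2 or 3.

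In the anterior visceral endoderm list, 1 of 5 tested genes rose and 3 fell with RA without inhibitor (median -0.53), with Otx2, a head-organising homeobox factor that mESCs also express, down by 2.72. Cer1 was at 0 in every library. Of 8 genes of the FGF input to primitive endoderm 4 rose and 2 fell. For both lists the shares of all tested genes were 33.7% called higher and 37.2% lower. Fgfr2, a receptor of primitive endoderm, rose from 0.353 ± 0.066 to 3.01 ± 0.197 FPKM, and its ligand gene Fgf4 fell from 94.7 ± 6.27 to 12.1 ± 1.06 FPKM (SD, n = 3, differences 1.57 and -2.88, limma adjusted p = 6.70e-09 and 1.00e-10). Fgfr2 reached 1 FPKM in RA libraries only and Otx2 in mESC libraries only, so for both a difference between the states was built into the filter. Lefty1, a nodal inhibitor, fell by 0.53 but not under TPM scaling (adjusted p = 0.0805).

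**Figure D3:**
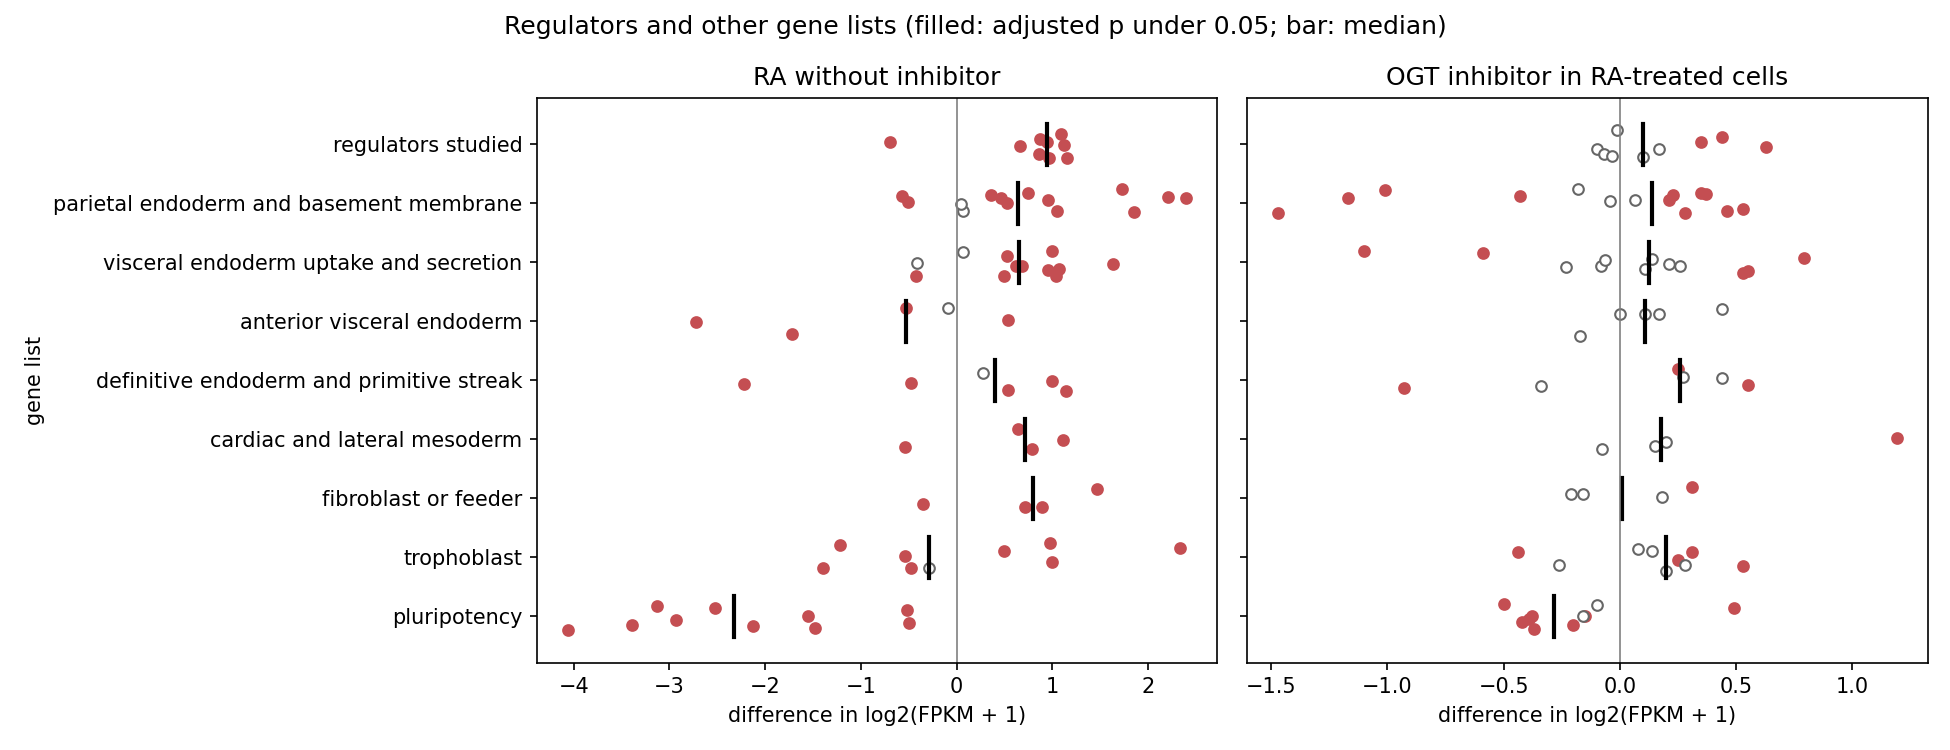
Differences in log2(FPKM + 1) of the tested genes of each list, with RA without inhibitor on the left and the inhibitor in RA-treated cells on the right. Each point is a gene, filled where the adjusted p was under 0.05, and the bar is the list's median. The regulators' median is 0.94 on the left and 0.10 on the right, and the pluripotency list's is -2.33 and -0.28. A small random vertical offset separates the points.

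Markers of other cell types that use the same regulators moved with RA too. Beside the counts for RA without inhibitor, 33.7% of all tested genes were called higher and 37.2% lower. Sox1 of the neural list, Cdx2 and Gata3 of the trophoblast list and Foxa1 reached 1 FPKM in RA libraries only. Kdr of the cardiac list and Col1a2 of the fibroblast list reached it in RA_OGTi only. For these genes a difference between the states was built into the filter, so the counts lean towards a rise. Of the fibroblast list 4 of 10 genes were tested, of which 3 rose and 1 fell with RA, and the summed level ran from 15.4 to 16.6 FPKM in mESC_control and 21.3 to 24.0 FPKM in RA_control. Its defining genes Dcn, Lum and Col3a1 were at 0 in every library of both groups, while Col1a1 went from 1.02 ± 0.21 to 4.60 ± 0.578 FPKM (SD, n = 3). Of the cardiac list 4 of 10 were tested, of which 3 rose and 1 fell, and its sum ran from 4.13 to 4.88 FPKM in mESC_control, 7.81 to 9.76 FPKM in RA_control and 14.3 to 16.0 FPKM in RA_OGTi. Nkx2-5, a cardiac homeobox factor, rose with RA by 1.11 and again with the inhibitor in RA-treated cells by 1.19 (limma adjusted p = 0.000196). In the latter comparison 1 of the 4 tested cardiac genes was called, Nkx2-5, and 3 were not. Its level went from 3.02 ± 1.08 to 7.96 ± 0.363 FPKM (SD, n = 3). Most of the rise of the cardiac sum with the inhibitor was therefore Nkx2-5 and does not describe the list. Of the definitive endoderm and primitive streak list 3 of 6 tested genes rose and 2 fell with RA, Foxa1 being shared with the visceral list. Its sum ran from 49.2 to 66.3 FPKM in mESC_control and from 22.9 to 24.8 FPKM in RA_control. Most of the mESC_control sum was 1 of the 2 that fell, Trh, which went from 52.2 ± 9.47 to 10.3 ± 0.378 FPKM (SD, n = 3). The 3 that rose were Pyy (means 2.16 to 5.79 FPKM), Foxa1 (0.366 to 1.76 FPKM) and Gsc (0.711 to 1.53 FPKM). The fall of the sum therefore describes Trh and not the list. The neural progenitor sum ran from 2.13 to 2.84 FPKM and from 6.48 to 7.72 FPKM in these groups, with 2 of 10 genes tested and both higher. For trophoblast 4 of 9 tested genes rose and 4 fell. With the inhibitor in RA-treated cells 7 of 10 pluripotency genes fell and 1 rose. Nanog fell by 0.50, and the 1 that rose did so by 0.49. Of all tested genes 14.3% were called lower there and 17.6% higher. The part of these cell types in the regulators' changes was not tested.

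Gata6, Sox17, Hnf4a, Dab2, Pdgfra and Afp overlap other genes, and the highest mean of any of these was 0.134 FPKM, for a noncoding gene opposite Gata6 in mESC_control. No overlapping gene is listed for Gata4, Sox7, Foxa2 or Cited1.

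The genes most like each regulator over the 12 libraries were taken by Pearson's r on log2(FPKM + 1) among protein-coding genes with a mean of at least 5 FPKM in a group. For Gata4 these were Msx2, Fignl2 and Sema6b (r = 0.995, 0.994 and 0.993), and for Cited1 Tmem37, Pcyox1 and Cd99l2 (r = 0.991, 0.984 and 0.984). For Gata6 the first was Slc30a9 (r = 0.995), for Sox7 Arhgef10 (r = 0.988), for Sox17 Uck1 (r = 0.987), for Dab2 Ret (r = 0.988), for Pdgfra Clgn (r = 0.987), for Foxa2 Necap2 (r = 0.978) and for Hnf4a Slc25a38 (r = 0.986). The libraries form separate mESC and RA groups that all genes share, so such values are common: 542 genes reached 0.95 with Gata4, 590 with Gata6, 210 with Cited1 and 85 with Foxa2.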

How the data were processed

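RNA was extracted with TRIzol and made into libraries with an NEBNext Ultra RNA kit, per the labels' protocols. The tools listed are HISAT2 2.0.5 and featureCounts 1.5.0, with the build GRCm38, per the submitters' processing notes. The authors deposited FPKM per gene with gene lengths. No source used here gives their filters, the strand setting or how FPKM was scaled, so antisense reads cannot be separated. FPKM multiplied by length gave whole fragments for 100% of values within 0.02. The total these values imply differed from the fragments counted, and it did so by state. There were 1.06 to 1.11 counted fragments per implied fragment in the mESC libraries and 0.883 to 0.934 in the RA libraries. FPKM in RA libraries is thus lower, relative to mESC libraries, than scaling to the counted fragments would give. That scaling was kept, also as the library sizes of limma-voom. Replicates differed by more than sampling noise (chi-square per gene 3.74 to 9.96 for genes with at least 20 fragments).

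Limma 3.58.1 in R 4.3.3 was fitted with an intensity trend to log2(FPKM + 1), 2-sided, in 1 fit of 12 libraries, with Benjamini-Hochberg adjustment over the 14866 genes that reached 1 FPKM in 3 or more libraries. The comparisons were RA without and with inhibitor, the inhibitor in each state, and the difference of its effects. The replicate numbers were checked for pairing and did not pair the libraries. Named genes were the 10 regulators, up to 4 called genes of each of 10 lists per comparison with the largest difference, and the 3 genes most like each regulator. Genes given to describe marker levels were chosen after their values were seen. They were Ttr, Apob, Trf, Cer1, Dcn, Lum and Col3a1, and under RA without inhibitor Cubn, Apoe, Lama1, Nid1, Lamc1 and Sparc. 1 list gene that this rule names is not reported here. The regulators and lists were chosen with earlier results of these data known. Other settings tried were 0.1 as pseudocount, all genes, a mean of at least 5 FPKM, TPM scaling, the compared groups alone, no trend, a replicate block, limma-voom on recovered fragments, and leaving out each library. The script was tested on simulated data. Tables and figures used Python 3.11.15, pandas 2.3.3, numpy 2.4.6 and matplotlib 3.10.9.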

Additional observations from a re-analysis of the deposited data

How the results depend on the processing

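Of the regulators' calls, the 9 with RA in each arm and those of Gata4 and Cited1 with the inhibitor in RA-treated cells held in every alternative in which the gene was tested, and that of Foxa2 did not. With the stricter filter 2 regulators remained to be tested, Gata4 and Cited1, so the calls numbered 2 with RA without inhibitor, 2 with RA with inhibitor and 1 for the difference of effects. TPM scaling and the replicate block each gave 1 call for the difference of effects, Cited1. Without 1 library, the calls numbered 9 to 9 with RA in either arm, 2 to 3 for the inhibitor in RA-treated cells, 0 to 0 for the inhibitor in mESCs and 0 to 1 for the difference.

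Some estimates that never passed changed sign. For the inhibitor in RA-treated cells, Gata6 was at 0.021 under TPM scaling and ran from -0.082 to 0.021 over the fits without 1 library, Sox7 from -0.10 to 0.042 and Pdgfra from -0.16 to 0.01. For the inhibitor in mESCs, Sox7 ran from -0.12 to 0.016, Hnf4a from -0.07 to 0.046, Dab2 from -0.061 to 0.11 and Cited1 from -0.31 to 0.034. For the difference of effects, Sox17 ran from -0.14 to 0.055 and Sox7 from -0.048 to 0.11. The replicate block did not rest on a pairing: of 18 same-numbered pairs of libraries, 3 deviated together with r over 0.1 (range -0.021 to 0.123). Depth limits Afp, at 0 to 6 fragments, and Foxa2 in mESCs, at 3 to 13 fragments a library.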
